A study of Mus musculus with 4 samples.

Results

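Regulatory T cells that held Foxp3 transcripts were described in 4 single-cell RNA libraries from mouse TC-1 tumours, a lung epithelial tumour line. Members were chosen by measured values, so these values are no finding about them. A cell was taken as a member when it had at least 500 detected genes, at most 10% of its unique molecular identifiers (UMIs, 1 per captured RNA molecule) on mitochondrial genes, at least 1 UMI of Foxp3 and of Cd3e, Cd3d and Cd3g together, and none of Cd8a or Cd8b1. Less than 1% of its UMIs could fall on the macrophage genes C1qa, C1qb, C1qc, Apoe and Lyz2. In all, 383 of 23294 cells that passed the gene and mitochondrial limits were members: 62 in the PBS library, 132 at day 1, 157 at day 3 and 32 at day 7 after cisplatin, a DNA-crosslinking drug.

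The mice were wild-type C57/bl6 animals that had received 300000 TC-1 cells under the skin. Each was given 1 intraperitoneal injection of cisplatin at 6 mg/kg, or of PBS, once the tumour measured 40 mm2 (of the PBS sample, the labels' treatment is PBS and their source name says that it had none), and tumours were taken 1, 3 or 7 days after cisplatin. The day on which the PBS tumours were taken, and the number of mice behind a library, are not given in the sources used here. Cells were sorted as CD45+ lin- CD90+ CD127+, the gate of innate lymphoid cells. The antibodies of the lineage mix are not given, and Thy1 (CD90) and Il7r (CD127) were part of the gate. Each condition was 1 library, so differences between days have no replicate check. Mice, day and library preparation cannot be told apart from treatment.

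Regulatory T cells (Tregs) are CD4 T cells whose identity rests on the transcription factor Foxp3. They restrain other lymphocytes through CTLA-4, which strips costimulatory ligands from antigen-presenting cells, through a high-affinity interleukin-2 receptor that takes up interleukin-2, and through interleukin-10, TGF-beta and adenosine. In tumours and other non-lymphoid tissues they often carry high levels of the TNF receptors OX40, 4-1BB and GITR, and subsets there express the interleukin-33 receptor ST2 and the tissue-repair factor amphiregulin.

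The 4 libraries held between 16153484 and 82493626 UMIs over 2981 to 10745 barcodes, and the median kept cell had between 5120 and 9120 UMIs. Despite the gate, most kept cells were macrophage barcodes (without a CD3 UMI and at or above the 1% limit): 6739 of 8075 in PBS, 4944 of 7484 at day 1, 2780 of 4964 at day 3 and 2161 of 2771 at day 7. Between 4 and 32 barcode sequences were shared by any pair of libraries, and 0 of these were members. Members had a median of 2030.5, 3727, 3107 and 2491 UMIs in PBS and at days 1, 3 and 7, and the summed members held 171223, 653655, 614119 and 109667 UMIs. Values below are CPM, a gene's UMIs in such a sum scaled to a total of 1e6, in the order PBS, day 1, day 3 and day 7 unless stated otherwise.

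The Treg label was checked against the 3 markers that the rule did not use, Ikzf2, Ctla4 and Tnfrsf4, and against the other lineages the gate could hold. Ikzf2 (Helios) was found in 90.3, 95.5, 93.0 and 90.6% of members, and in 91.2, 92.3, 92.6 and 90.9% after thinning to 2000 UMIs. Thinning left out every cell with fewer UMIs, 28, 15, 22 and 10 members, so thinned shares of members cover 34, 117, 135 and 22 cells. After the same thinning Ikzf2 was found in 31.7, 24.7, 28.0 and 37.0% of CD3+ cells without Foxp3, Cd8 or Trdc UMIs (called Foxp3-negative T cells here) and in 0.608, 2.88, 1.58 and 1.07% of macrophage barcodes. Thinned shares for Ctla4 were 61.8, 66.7, 65.2 and 72.7% of members (67.7, 77.3, 67.5 and 75.0% unthinned) against 0.218, 0.823, 0.827 and 0.268% of macrophage barcodes. For Tnfrsf4 they were 94.1, 89.7, 91.1 and 100% of members (96.8, 93.9, 94.9 and 93.8% unthinned) against 0.966, 2.86, 3.07 and 0.749% of macrophage barcodes. Trac, the constant chain of the alpha-beta T cell receptor, stood at 567, 609, 842 and 1449.8 CPM, and Cd4 was found in 14, 61, 64 and 8 members. The defining natural killer (NK) cell genes Ncr1, Klra8 and Klra4, the B cell genes Cd79a and Ms4a1, and the type 2 innate lymphoid genes Il13, Il5 and Il17rb were at 0. Other genes of those lists were not. The type 2 innate lymphoid list, which also holds Gata3, Il1rl1, Rora, Klrg1 and Arg1, summed to 1548, 1323, 1355 and 1231 CPM in members and 555, 391, 497 and 461 CPM in Foxp3-negative T cells, and tissue Tregs are known to use Gata3, Il1rl1 and Klrg1 as well. Of its 4 genes tested, 3 were higher in members than in Foxp3-negative, 4 than in CD8 and 3 than in gamma-delta T cells, in the edgeR contrasts given further on. The B cell list summed to 315, 257, 409 and 292 CPM in members, and both of its tested genes, Igkc and Ighm, were higher in all 3 contrasts. The part of other cells' RNA in these values was not tested. Trdc, the delta chain, had a UMI in 0, 5, 5 and 0 members. The markers of regulatory T cells were thus present, beside genes shared with type 2 innate lymphoid cells and immunoglobulin RNA.

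The Foxp3 limit separated cells with different levels of the other markers, given here as a description without a test. Among otherwise eligible T cells with 0 Foxp3 UMIs (900 cells), Ctla4 stood at 97.6 CPM, Ikzf2 at 237 CPM and Tnfrsf4 at 287 CPM. Just inside the limit, in the 169 cells with 1 Foxp3 UMI, they stood at 731, 1401 and 2113 CPM. The 98 cells with 2 Foxp3 UMIs had 909, 1921 and 3084 CPM, and the 116 cells with 3 or more had 901, 1616 and 2540 CPM. In these 3 genes, cells with a single Foxp3 UMI stood nearer to those with more than to those with none. Tyrobp, a myeloid and NK adaptor, stood at 1336, 796, 521 and 500 CPM with 0, 1, 2 and 3 or more Foxp3 UMIs. Trdc stood at 154, 47.3, 30.3 and 1.75 CPM in that order. Cells with a single Foxp3 UMI thus held more of these 2 transcripts than cells with more. At the macrophage limit, the 152 members with 0.5% to 1% of UMIs on macrophage genes had Ctla4 at 803 CPM and Tyrobp at 876 CPM. The 106 cells just outside, at 1% to 2%, had 444 and 1525 CPM, and their median UMI count was 4447 against 2894 inside.

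Foxp3 RNA was also found in macrophage barcodes, which held no CD3 UMI. The part of T cell RNA in these barcodes was not tested. Before thinning, 0.252%, 3.30%, 0.971% and 0.139% of macrophage barcodes held a Foxp3 UMI, at median depths of 6223, 9081.5, 6622.5 and 5009 UMIs. Thinned to 2000 UMIs, the shares were 0.125% (0.0538% to 0.245%), 0.671% (0.457% to 0.952%), 0.433% (0.217% to 0.774%) and 0% (0% to 0.197%). Day 1 stood highest in this background before and after thinning, but its thinned interval overlapped that of day 3. At day 1, 204 CD3+ Foxp3+ Cd8-negative cells lay above the macrophage limit and 132 passed it. That is a pass rate of 39.3%, against 68.9% in PBS, 80.5% at day 3 and 69.6% at day 7.

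In the PBS library 0.768% of kept cells were members (exact Clopper-Pearson 95% interval 0.589% to 0.983%, counting error only). The share was 1.76% (1.48% to 2.09%) at day 1, 3.16% (2.69% to 3.69%) at day 3 and 1.15% (0.791% to 1.63%) at day 7. Day 3 stood highest, and its interval overlapped none of the others. Counted instead among CD3+ cells that passed the same limits, members were 33.0% (26.3% to 40.2%) in PBS, 28.9% (24.8% to 33.3%) at day 1, 21.8% (18.9% to 25.0%) at day 3 and 27.4% (19.5% to 36.4%) at day 7. Day 3 was lowest on this denominator, with an interval below that of PBS and overlapping those of days 1 and 7. The 2 shares thus gave opposite orders for PBS and day 3: CD3+ cells under the limits were 188 of 8075 kept cells in PBS and 719 of 4964 at day 3.

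Without the macrophage limit the share of kept cells was 1.11%, 4.49%, 3.93% and 1.66%, so day 1 then stood above day 3. With every cell thinned to 2000 UMIs it was 0.330%, 1.21%, 2.41% and 0.840%, and thinning left out 505, 555, 565 and 391 kept cells. The share of CD3+ cells was less stable in its order: PBS, day 1, day 3 and day 7 had 12.2%, 17.7%, 13.2% and 12.8% with at least 2 Foxp3 UMIs, and 7.45%, 13.3%, 8.90% and 6.84% when a Cd4 UMI was required, so that day 3 was no longer lowest. Foxp3 dropout also bears on these shares: after thinning, a Foxp3 UMI was still found in 73.5, 70.1, 77.0 and 90.9% of the 34, 117, 135 and 22 members with at least 2000 UMIs. All of these held at least 1 before. The plot of shares by library shows both denominators and both settings of the macrophage limit.

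**Figure D1:**
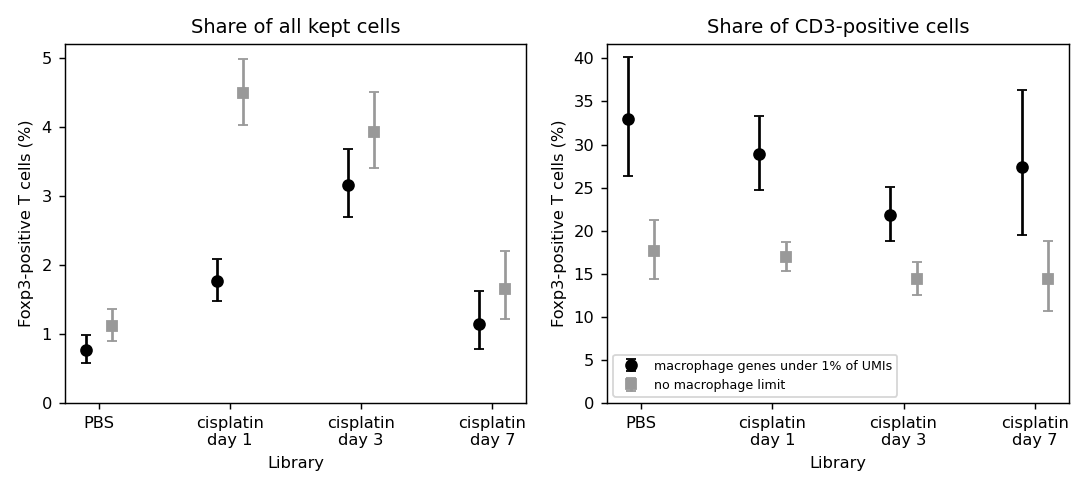
Members as a percentage of all kept cells (left) and of CD3+ cells (right) in each of the 4 libraries, with exact 95% intervals that cover counting error only. Black circles use the macrophage limit and grey squares do not; day 3 is highest on the left (3.16%) and lowest on the right (21.8%) with the limit, and day 1 is highest on the left without it (4.49%).

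To see what distinguished these cells from other T cells of the same tumours, their summed counts were compared with 3 groups from the same libraries in 1 edgeR quasi-likelihood fit with the library as a block. The groups were 741 Foxp3-negative T cells, 168 CD8 T cells (Cd8a or Cd8b1 present, Foxp3 absent) and 159 gamma-delta T cells (Trdc present, Foxp3 and Cd8 absent). The contrasts share the member sums. The CD8 contrast rests on 3 libraries because only 7 such cells came from PBS, and the others rest on 4. Of 6992 genes tested, 12.5% were higher and 13.2% lower in members than in Foxp3-negative T cells at an adjusted p under 0.05. The shares were 5.56% and 4.99% against CD8 T cells, and 5.18% and 4.29% against gamma-delta T cells. Counts of list genes, here and above, are to be read beside these shares. Changes below are log2 fold changes ± SE with Benjamini-Hochberg adjusted p over all tested genes, and genes of the membership rule are left out of them. The SE was derived from the test, as the size of the change divided by the square root of its F statistic.

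Treg transcription factors other than Foxp3 were mostly higher than in Foxp3-negative T cells, and less uniformly placed against the other groups. Against Foxp3-negative T cells, 11 of 19 tested were higher and 2 lower (median 0.75), where 12.5% and 13.2% of all genes were called. Against CD8 T cells 8 were higher and 3 lower (median 0.24), and against gamma-delta T cells 5 and 2 (median 0.26). Over all genes tested the medians were -0.03, -0.01 and 0.06. Ikzf2 (Helios, chromosome 1, 69531214 to 69687245, minus strand, mm10), a factor that stabilises the Treg programme, stood at 1262, 1672, 1648 and 1459 CPM in members and 312, 177, 304 and 259 CPM in Foxp3-negative T cells. The ranges did not overlap, and the change was 2.54 ± 0.25 (adjusted p = 2.6e-08), with 3.69 ± 0.32 (adjusted p = 9.1e-09) against CD8 and 3.09 ± 0.30 (adjusted p = 2.4e-08) against gamma-delta T cells. Ikzf4 (Eos), a Foxp3 partner in gene silencing, had 64.2, 136, 176 and 45.6 CPM against 24.7, 11.0, 15.7 and 16.2 CPM, a change of 2.99 ± 0.31 (adjusted p = 1.0e-07). Gata3, which tissue Tregs use to hold their identity, was higher by 2.16 ± 0.26 (adjusted p = 7.2e-07), and Batf, an AP-1 factor of tissue Tregs, by 2.25 ± 0.25 (adjusted p = 2.0e-07). Maf, a driver of Il10 in several T cell types, was higher by 1.80, 3.05 and 1.10 in the 3 contrasts. The factor of naive and memory T cells Tcf7 (TCF-1) was the opposite, at 5.84, 6.12, 3.26 and 0 CPM in members and 33.7, 25.6, 73.0 and 36.4 CPM in Foxp3-negative T cells. Its change was -3.27 ± 0.53 (adjusted p = 4.5e-05), with -3.92 against CD8 and -4.84 against gamma-delta T cells.

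Suppressive molecules followed the same direction. Of 20 tested, 14 were higher and 1 (Lgals3, a galectin) lower than in Foxp3-negative T cells. Against CD8 T cells 11 were higher and 2 lower, and against gamma-delta T cells 12 and 0, with medians of 1.19, 1.22 and 1.95. Ctla4 (chromosome 1, 60887000 to 60915832, plus strand) had 800.1, 849, 799.5 and 1012 CPM in members, 269.5, 73.0, 113 and 88.9 CPM in Foxp3-negative and 0, 38.1, 18.3 and 0 CPM in gamma-delta T cells. Every member sum lay above every sum of the other groups, and the changes were 2.79 ± 0.27 (adjusted p = 2.5e-08), 2.67 ± 0.32 (adjusted p = 1.3e-06) against CD8 and 5.19 ± 0.43 (adjusted p = 8.9e-10) against gamma-delta T cells. Il2ra, the high-affinity chain of the interleukin-2 receptor, stood at 409, 542, 801 and 319 CPM against 128, 45.6, 124 and 121 CPM, a change of 2.41 ± 0.29 (adjusted p = 6.4e-07). Il10 was sparse, at 23.4, 33.7, 78.2 and 9.12 CPM in members, 0, 19.6, 27.4 and 4.04 CPM in Foxp3-negative T cells and 13.2, 23.6, 49.6 and 5.88 CPM in macrophage barcodes. Its change of 1.27 ± 0.38 (adjusted p = 0.013) was lost with DESeq2 (adjusted p = 0.092), with at least 2 Foxp3 UMIs (0.12), with a macrophage limit of 0.5% (0.10) and without the library block (0.21).

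Genes that display and activate latent TGF-beta were among the higher ones. Itgb8, the integrin chain that releases active TGF-beta, had 111, 176, 145 and 91.2 CPM in members against 20.2, 18.3, 20.3 and 28.3 CPM in Foxp3-negative T cells, a change of 2.75 ± 0.28 (adjusted p = 2.1e-07). In the 3 CD8 and all 4 gamma-delta sums it was at 0, which with a floor of 3 counts over the group makes it at least 64.1-fold and 33.4-fold higher in members. Its partner Itgav was higher by 1.11, 2.13 and 2.52. Lrrc32 (GARP), the receptor that holds latent TGF-beta on the cell, was higher by 2.45 ± 0.43 (adjusted p = 1.6e-04). Tgfb1 itself was higher by 0.66 ± 0.21 (adjusted p = 0.023) than in Foxp3-negative T cells, and its difference from gamma-delta T cells, -0.39 ± 0.24 (adjusted p = 0.39), did not pass. Ebi3, the shared chain of interleukins 27 and 35, was higher by 2.27 ± 0.30 (adjusted p = 3.3e-06), while Il12a, the other chain of interleukin-35, was at 0. Lag3, an MHC class II-binding inhibitory receptor, was higher by 1.90 ± 0.25 (adjusted p = 2.6e-06) than in Foxp3-negative T cells, and its difference from CD8 T cells of 0.23 ± 0.26 (adjusted p = 0.67) did not pass.

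Amphiregulin and granzyme B marked members less firmly. Areg, an epidermal growth factor family member of tissue repair, had 561, 514, 451 and 128 CPM in members and 115, 133, 143 and 251 CPM in Foxp3-negative T cells, higher in 3 of 4 libraries, with day 7 the exception. The change was 1.43 ± 0.38 (adjusted p = 6.1e-03). It was lost with DESeq2 (1.35, adjusted p = 0.068), with a macrophage limit of 0.5% (0.96, adjusted p = 0.24) and without the library block (1.40, adjusted p = 0.12). Gzmb, a protease of cytotoxic granules that Tregs also use, had 695, 818, 1666 and 1368 CPM against 164, 90.8, 610.4 and 420.4 CPM and was higher by 2.06 ± 0.32 (adjusted p = 2.2e-05). With at least 3 CD3 UMIs required of all cells this became 0.81 (adjusted p = 0.059), and without the library block 1.79 (adjusted p = 0.12).

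Costimulatory receptors separated members from the other T cells. Of 12 tested, 10 were higher than in Foxp3-negative T cells, 9 than in CD8 and 6 than in gamma-delta T cells, with medians of 1.52, 1.76 and 1.06. The 1 lower gene was Cd40lg, the helper signal to B cells (-2.20 ± 0.43, adjusted p = 4.6e-04 against Foxp3-negative T cells). Tnfrsf4 (OX40, chromosome 4, 156013843 to 156016612, plus strand) stood at 2447, 1993, 3065 and 2416 CPM in members and 640.1, 172, 415 and 380 CPM in Foxp3-negative T cells. In gamma-delta T cells it was 0, 44.5, 6.87 and 0 CPM. The changes were 2.70 ± 0.25 (adjusted p = 1.7e-08), 3.62 ± 0.31 (adjusted p = 8.7e-09) against CD8 and 7.20 ± 0.44 (adjusted p = 5.8e-12) against gamma-delta T cells. Tnfrsf9 (4-1BB) had 1478, 1242, 1772 and 1751 CPM against 389, 113, 318 and 323 CPM and Tnfrsf18 (GITR) 1297, 1253, 1361 and 1532 CPM against 323, 108, 297 and 303 CPM, changes of 2.53 ± 0.25 (adjusted p = 3.3e-08) and 2.48 ± 0.22 (adjusted p = 1.5e-08). No member sum of these 3 receptors overlapped a sum of another T cell group. Icos, an inducible relative of CD28, was higher by 1.76 ± 0.23 (adjusted p = 2.8e-06), and Tnfrsf8 (CD30) by 2.77 and by 3.88 against CD8, with 0 UMIs in gamma-delta T cells (at least 6.02-fold higher). Cd28 itself was higher only by 0.96 against Foxp3-negative T cells, with 0.09 and 0.58 in the others, neither of which passed.

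**Figure D2:**
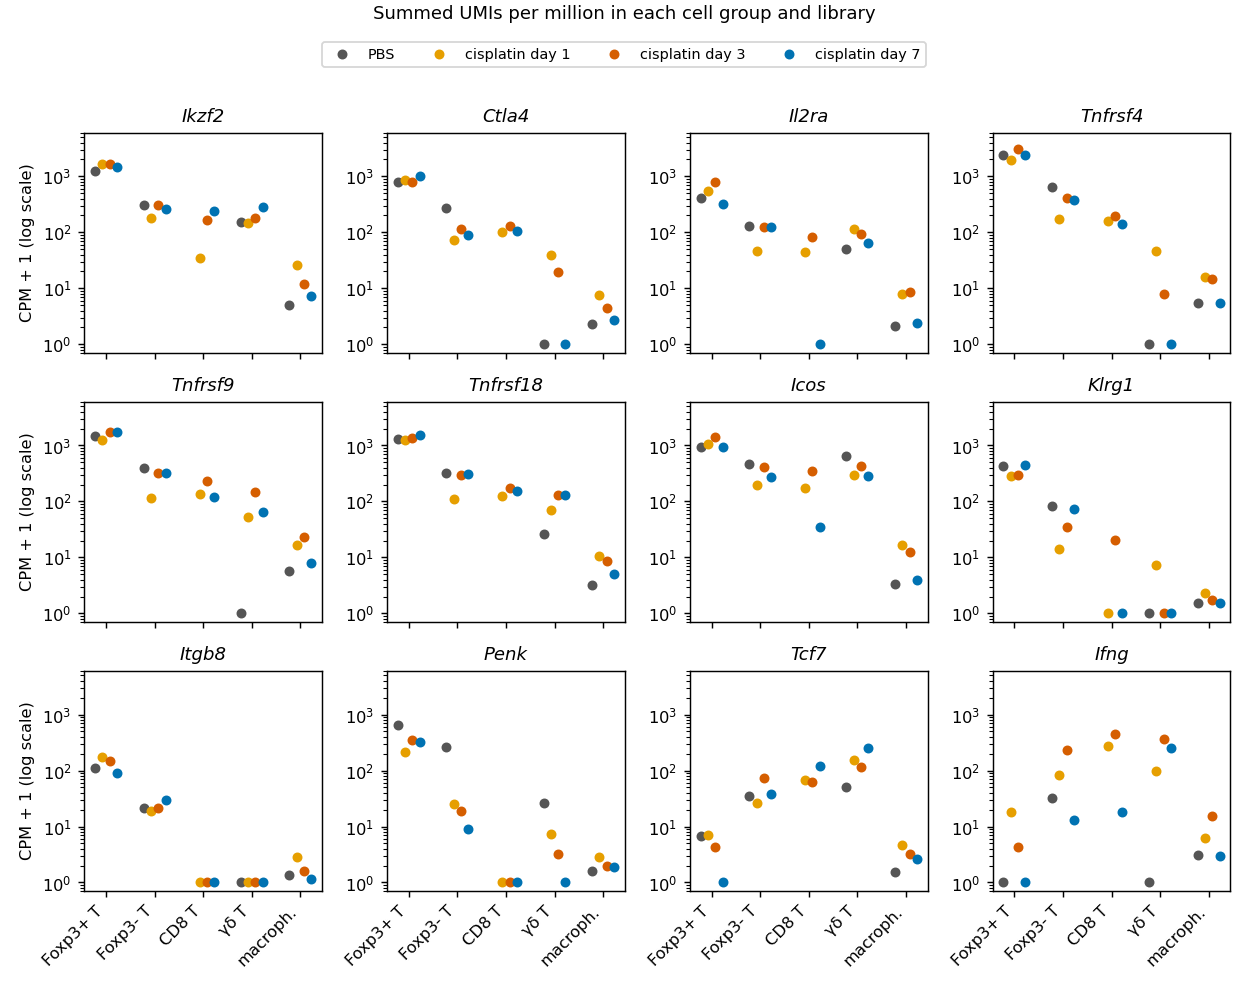
Levels of 12 genes (CPM + 1, log axis) in each cell group, with 1 point per library coloured by condition; the PBS sum of 7 CD8 T cells is not drawn. Ikzf2, Ctla4 and the TNF receptors sit highest in the Foxp3-positive cells in all 4 libraries, while Tcf7 and Ifng are at or below 16.8 CPM there.

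Among checkpoint receptors 5 of 9 were higher and 1 lower than in Foxp3-negative T cells, 3 and 1 against CD8, and 5 and 1 against gamma-delta T cells. In the same order, the shares of all genes were 12.5% and 13.2%, 5.56% and 4.99%, and 5.18% and 4.29%. Ctla4 and Lag3 belong to this list too. Pdcd1 (PD-1), at 146, 119, 74.9 and 155 CPM in members, was higher than in Foxp3-negative T cells by 1.71 ± 0.30 (adjusted p = 1.3e-04) but differed from CD8 T cells by -0.51 ± 0.32 (adjusted p = 0.37). Tox, a factor of chronically stimulated T cells, was higher by 2.68 ± 0.31 (adjusted p = 4.7e-07), and Havcr2 (TIM-3) by 1.76 ± 0.28 (adjusted p = 2.9e-05). The lower gene in every contrast was Cd160, a receptor of NK and cytotoxic T cells (-3.72, -6.00 and -5.63). Tigit, a common Treg receptor, had few UMIs, at 5.84, 7.65, 4.89 and 0 CPM.

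Of 27 cytokine receptors and feedback genes, 15 were higher and 2 lower than in Foxp3-negative T cells, 9 and 0 against CD8, and 7 and 2 against gamma-delta T cells. The interleukin-2 signal genes Stat5a (1.53 ± 0.28, adjusted p = 1.7e-04) and Cish (1.41 ± 0.25, adjusted p = 1.3e-04) were among them. Over all genes the shares higher and lower in the 3 contrasts were 12.5% and 13.2%, 5.56% and 4.99%, and 5.18% and 4.29%. Il7r, whose protein was part of the gate, stood at 1133, 1189, 1130.1 and 492 CPM in members and 418, 276, 442 and 97.0 CPM in Foxp3-negative T cells, a change of 1.70 ± 0.21 (adjusted p = 9.6e-07). Circulating Tregs are known for low Il7r. Members and Foxp3-negative T cells came through the same CD127 gate, and its part in these levels was not tested. Il1r2, a decoy receptor for interleukin-1, had 444, 317, 303 and 246 CPM and was higher by 1.74, 1.57 and 3.55 in the 3 contrasts. Il1rl1 (ST2, the interleukin-33 receptor) had 128, 149.9, 103 and 54.7 CPM, higher than in CD8 (1.83 ± 0.42, adjusted p = 4.0e-03) and gamma-delta T cells (4.97 ± 0.77, adjusted p = 3.6e-05). Against Foxp3-negative T cells, at 33.7, 143, 73.5 and 149.6 CPM, its difference of 0.28 ± 0.30 (adjusted p = 0.53) did not pass.

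Homing and residency genes split. Of 17 tested, 8 were higher and 1 lower than in Foxp3-negative T cells, 4 and 2 against CD8, and 4 and 4 against gamma-delta T cells. The matching shares of all genes were 12.5% and 13.2%, 5.56% and 4.99%, and 5.18% and 4.29%. Itgae (CD103), which binds E-cadherin on epithelium, had 286, 182, 163 and 119 CPM against 62.9, 28.7, 30.9 and 24.3 CPM, a change of 2.37 ± 0.23 (adjusted p = 2.4e-08). Ccr2, a receptor for monocyte chemokines, had 730, 815, 830.5 and 465 CPM and was higher by 1.86 ± 0.23 (adjusted p = 1.3e-06). Cxcr6 (at 193, 185, 270.3 and 82.1 CPM) was lower than in gamma-delta T cells (-1.73 ± 0.24, adjusted p = 8.1e-06), and its difference from Foxp3-negative T cells, 0.60 ± 0.23 (adjusted p = 0.055), did not pass. Ccr8, a receptor often named for tumour Tregs, was low here, at 17.5, 21.4, 16.3 and 45.6 CPM. Klrg1, an inhibitory receptor of terminally differentiated effector cells, had 421, 286, 301 and 438 CPM in members and 80.9, 13.2, 34.5 and 72.8 CPM in Foxp3-negative T cells. It was higher by 3.16 ± 0.30 (adjusted p = 2.4e-08), 4.70 ± 0.48 (adjusted p = 1.1e-07) and 7.46 ± 0.75 (adjusted p = 4.3e-08), and the member sums overlapped none of the others.

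In T cell receptor signalling, 12 of 22 genes were higher and 1 lower than in Foxp3-negative T cells, 8 and 1 against CD8, and 8 and 3 against gamma-delta T cells. Cd4, with 87.6, 136, 148 and 91.2 CPM against 33.7, 16.0, 28.4 and 16.2 CPM, was higher by 2.40 ± 0.27 (adjusted p = 2.1e-07). Cd5, a brake on receptor signalling, was higher by 2.55, 3.16 and 5.71. Trac, at 567, 609, 842 and 1449.8 CPM, was higher by 1.84 ± 0.19 (adjusted p = 1.0e-07) than in Foxp3-negative T cells, which stood at 213, 112, 300.1 and 319 CPM. That group needed only 1 CD3 UMI, and Trac was found in 45.1, 43.8, 57.5 and 56.4% of its cells, unthinned. Hif1a, a factor of the low-oxygen response from the list of glycolysis and hypoxia genes, was higher by 1.64 ± 0.19 (adjusted p = 3.0e-07). Of that list 8 of 22 were higher and 0 lower than in Foxp3-negative T cells, 3 and 0 against CD8, and 12 and 1 against gamma-delta T cells. Beside both lists, the shares of all genes were 12.5% and 13.2%, 5.56% and 4.99%, and 5.18% and 4.29%.

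Effector genes formed the low side. Of 14 cytotoxic genes tested, 6 were lower than in Foxp3-negative, 13 than in CD8 and 9 than in gamma-delta T cells, with medians of -1.11, -2.92 and -2.11. Gzmb was the only higher one in each contrast. Ifng, the cytokine of type 1 effector cells, had 0, 16.8, 3.26 and 0 CPM in members, 31.4, 83.1, 228 and 12.1 CPM in Foxp3-negative and 0, 95.3, 362 and 254 CPM in gamma-delta T cells. Each member sum lay below that of Foxp3-negative T cells from the same library, and the change was -3.82 ± 0.56 (adjusted p = 1.3e-05). Xcl1, a chemokine for cross-presenting dendritic cells, was lower too, with a change of -4.61 ± 0.67 (adjusted p = 1.3e-05). Nkg7, a granule membrane protein, at 5.84, 65.8, 81.4 and 465 CPM, was lower than in CD8 T cells (-3.00 ± 0.37, adjusted p = 1.5e-06), while its difference from Foxp3-negative T cells of -0.84 ± 0.36 (adjusted p = 0.081) did not pass. All 7 of 7 NK and ILC1 markers tested were lower than in Foxp3-negative T cells, 4 than in CD8 and 7 than in gamma-delta T cells. The comparison groups needed only 1 CD3 UMI, and the part of NK or innate lymphoid cells in them was not tested. Bcl2, an anti-death factor of resting lymphocytes, had 5.84, 6.12, 13.0 and 9.12 CPM against 29.2, 25.1, 88.7 and 20.2 CPM, a change of -2.36 ± 0.46 (adjusted p = 3.7e-04), while its relative Bcl2l1 (Bcl-xL) was higher by 1.22 ± 0.23 (adjusted p = 2.3e-04).

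Heat shock and early-response genes, which rise with tissue dissociation, were lower: 16 of 21 against Foxp3-negative, 8 against CD8 and 20 against gamma-delta T cells, with 0 higher in any. Jun, an AP-1 factor of that response, had 619, 375, 418 and 438 CPM in members and 878, 1243, 868 and 1463 CPM in Foxp3-negative T cells (-1.31 ± 0.19, adjusted p = 1.3e-05), and Egr1, another early-response factor, changed by -2.31 ± 0.39 (adjusted p = 6.6e-05). The part of cell handling in the contrasts was not tested. Transcripts of other cell types differed as well: mast cell Cma1 and stromal Dcn were lower in members, with changes of -3.76 and -4.55, and the 7 macrophage markers outside the membership rule summed to 1618, 1798, 1451 and 1596 CPM in members against 2453, 2249.7, 2173 and 2029 CPM in Foxp3-negative T cells. Of these 7, 0 were higher and 2 lower in members. The part of these cells' RNA in the contrasts was not tested. With at least 3 CD3 UMIs required the changes of Ikzf2, Ctla4 and Tnfrsf4 were 1.32, 1.58 and 1.45, all past the threshold but smaller than without that requirement. Those of Tcf7 and Ifng were then -5.00 and -4.59. Without the day 1 library 357 genes were higher and 371 lower than in Foxp3-negative T cells, and without day 3 494 and 433, against 876 and 922 with all 4.

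**Figure D3:**
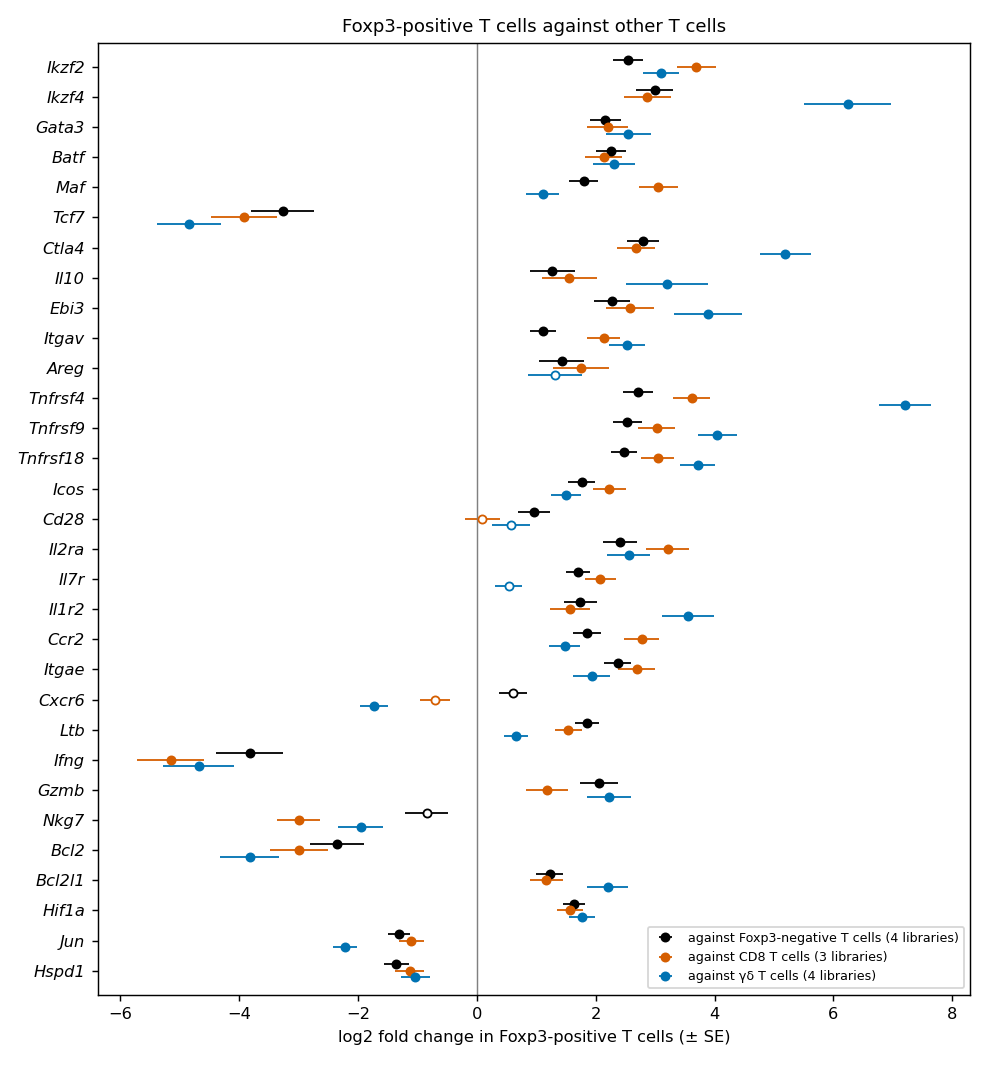
Log2 fold change ± SE of 31 genes in Foxp3-positive cells against each of the 3 other T cell groups. Filled points passed an adjusted p of 0.05 and open points did not; the costimulatory receptors lie to the right in every contrast (Tnfrsf4 2.70, 3.62 and 7.20) and Ifng lies to the left (-3.82, -5.16 and -4.68).

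The next question was how members of the cisplatin libraries differed from those of the PBS library. Each ratio is a log2 ratio of CPM with an exact conditional binomial 95% interval that covers counting error only. A gene is called past the fold when it is at least 2-fold apart with an interval that excludes equal levels. No test between conditions was possible with 1 library each, and the 3 ratios share the PBS library. Fewer cells in a given state and less RNA per cell cannot be told apart in these sums. At day 1, 2.99% of 5181 genes stood past the fold above PBS and 1.64% below. At day 3 the shares were 6.17% and 2.75% of 5021 genes, and at day 7 8.16% in either direction of 2268 genes. Counts of list genes by day are to be read beside these shares. Because 20 UMIs were required over both libraries, day 7 had the fewest measurable genes.

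Ikzf2, Tnfrsf4 and Ctla4 were not past the fold on any day. The log2 ratios at days 1, 3 and 7 were 0.41, 0.39 and 0.21 for Ikzf2 and -0.30, 0.32 and -0.02 for Tnfrsf4. Ctla4 had 800.1, 849, 799.5 and 1012 CPM. Tnfrsf18 and Klrg1 were not past the fold on any day either. Other genes that were higher in members than in Foxp3-negative T cells passed the fold. Ikzf4 stood higher at day 1, by 1.08 (0.18 to 2.14), and at day 3, by 1.45 (0.56 to 2.50), and Itgae stood lower at day 7, with a ratio of -1.27 (-2.28 to -0.37). Foxp3 (chromosome X, 7573644 to 7595245, plus strand) had 572, 473, 594 and 547 CPM, a level that the choice of members fixes in large part. Of 18, 18 and 13 measurable suppressive molecules, 2, 4 and 1 stood past the fold above PBS and 1, 0 and 3 below, where the shares of all genes were 2.99%, 6.17% and 8.16% above and 1.64%, 2.75% and 8.16% below. Il2ra at day 3 was 0.97 (0.61 to 1.35), just short of 2-fold. Gzmb, at 695, 818, 1666 and 1368 CPM, stood higher at day 3 by 1.26 (0.99 to 1.55) and Il10 by 1.74 (0.29 to 3.68), the latter from 4, 22, 48 and 1 UMIs. A difference from other cells was not tested: Gzmb also stood higher by 1.90 in Foxp3-negative T cells and 4.97 in all other kept cells.

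A large group of interferon-induced genes stood higher at day 3. Of 41 measurable genes of the type I interferon list, 35 were past the fold above PBS and 0 below, with a median log2 ratio of 1.86 against 0.10 over all genes (0.07 at day 1 and 0.02 at day 7). At day 1 it was 0 of 27 (median 0.20) and at day 7 10 of 16 (median 1.17). The list summed to 7808, 8338, 20003 and 12109 CPM. At day 3 the same list had a median of 2.74 in Foxp3-negative T cells and 2.12 in all other kept cells. The higher level at day 3 was thus found in other cell groups of that library too.

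Isg15, a ubiquitin-like protein (chromosome 4, 156199424 to 156200818, minus strand), had 25, 131, 582 and 47 UMIs in 11, 46, 108 and 9 members, or 146, 200.4, 948 and 429 CPM. Its ratio was 0.46 (-0.17 to 1.14) at day 1, 2.70 (2.12 to 3.34) at day 3 and 1.55 (0.82 to 2.32) at day 7, where 1 cell gave 42.6% of the UMIs. Ifit1, which binds foreign RNA, had 29.2, 30.6, 415 and 401 CPM, a ratio of 3.83 (2.59 to 5.46) at day 3, spread over 55 of 157 members. Its day 7 ratio of 3.78 (2.45 to 5.47) rested on 8 cells, and 1 of them gave 52.3% of the UMIs. Bst2 (tetherin) had 123, 216, 596 and 365 CPM and stood higher by 2.28 (1.65 to 2.99) at day 3. Irf7, a transcription factor of the response, also stood higher at day 3. It had 81.8, 116, 531 and 182 CPM, a ratio of 2.70 (1.93 to 3.59). Slfn1, a schlafen gene of lymphocyte quiescence, had 0, 17, 72 and 1 UMIs, so day 3 stood at least 6.69-fold higher against a floor of 3 counts. The 6 measurable genes of the list not past the fold at day 3 were Stat2 (0.94), Ifi44 (1.41), Ddx58 (1.19), Ly6e (0.39), Ly6a (0.92) and Tor3a (1.53).

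Interferon-induced promoters commonly hold the interferon-stimulated response element. Its core was searched as GAAA, then NN (any bases), then GAAA, on both strands in the 250 bases before each RefSeq transcription start (GRCm38.p6), with overlapping matches counted. It was in 978 of 32851 such windows (2.98%), and in 936 of 27025 genes (3.46%). Of the 43 genes of the list 31 had a promoter entry, and 16 of these (51.6%) held the motif. The 3 of them with the most UMIs in members at day 3 are printed 5′ to 3′ on the gene's strand, with matches in capitals, as the shared sequence of the genes with the clearest day 3 values. Those of Isg15 begin 78 to 66 bases before the start on the gene's strand, those of Bst2 130 and 124 bases before it, and those of Ifit1, on the other strand, 104 and 85 bases before it. A match describes letters only.
Isg15 (chr4:156200819-156201068, minus strand): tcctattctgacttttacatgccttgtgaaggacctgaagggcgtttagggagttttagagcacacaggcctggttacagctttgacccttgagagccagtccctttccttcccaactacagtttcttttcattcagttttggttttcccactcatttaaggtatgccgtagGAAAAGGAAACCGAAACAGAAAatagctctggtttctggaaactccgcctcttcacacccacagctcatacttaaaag
Bst2 (chr8:71537473-71537722, minus strand): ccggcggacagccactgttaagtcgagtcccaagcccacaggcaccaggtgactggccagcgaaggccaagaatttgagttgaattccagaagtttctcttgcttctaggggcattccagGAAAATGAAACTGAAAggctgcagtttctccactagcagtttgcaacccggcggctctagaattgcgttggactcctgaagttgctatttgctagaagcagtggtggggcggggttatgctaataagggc
Ifit1 (chr19:34640639-34640888, plus strand): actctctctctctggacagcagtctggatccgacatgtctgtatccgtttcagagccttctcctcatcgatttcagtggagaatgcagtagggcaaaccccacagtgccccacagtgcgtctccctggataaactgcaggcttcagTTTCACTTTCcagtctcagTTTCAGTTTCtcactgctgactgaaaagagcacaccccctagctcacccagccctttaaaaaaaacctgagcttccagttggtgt

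Genes of the interferon-gamma response and of MHC class I presentation stood higher at day 3 as well. Of 28 measurable at day 3, 20 stood past the fold above PBS and 0 below (median 1.45), against 0 of 21 at day 1 (median 0.27) and 7 of 16 at day 7 (median 0.96). Iigp1, an interferon-inducible GTPase, had 5.84, 18.4, 153 and 109 CPM and a day 3 ratio of 4.71 (2.20 to 10.03). Tap1, which carries peptides to MHC class I, had 158, 197, 443 and 237 CPM and 1.49 (0.92 to 2.12), and Irf1, a factor downstream of interferon-gamma, 70.1, 110.2, 249 and 146 CPM and 1.83 (0.98 to 2.81). Cd274 (PD-L1) stood at 17.5, 50.5, 96.1 and 119 CPM, a ratio of 2.46 (0.84 to 4.77) at day 3. In Foxp3-negative T cells and in other kept cells the list's day 3 medians were 1.56 and 1.88. Ifng itself was at 0, 16.8, 3.26 and 0 CPM in members.

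**Figure D4:**
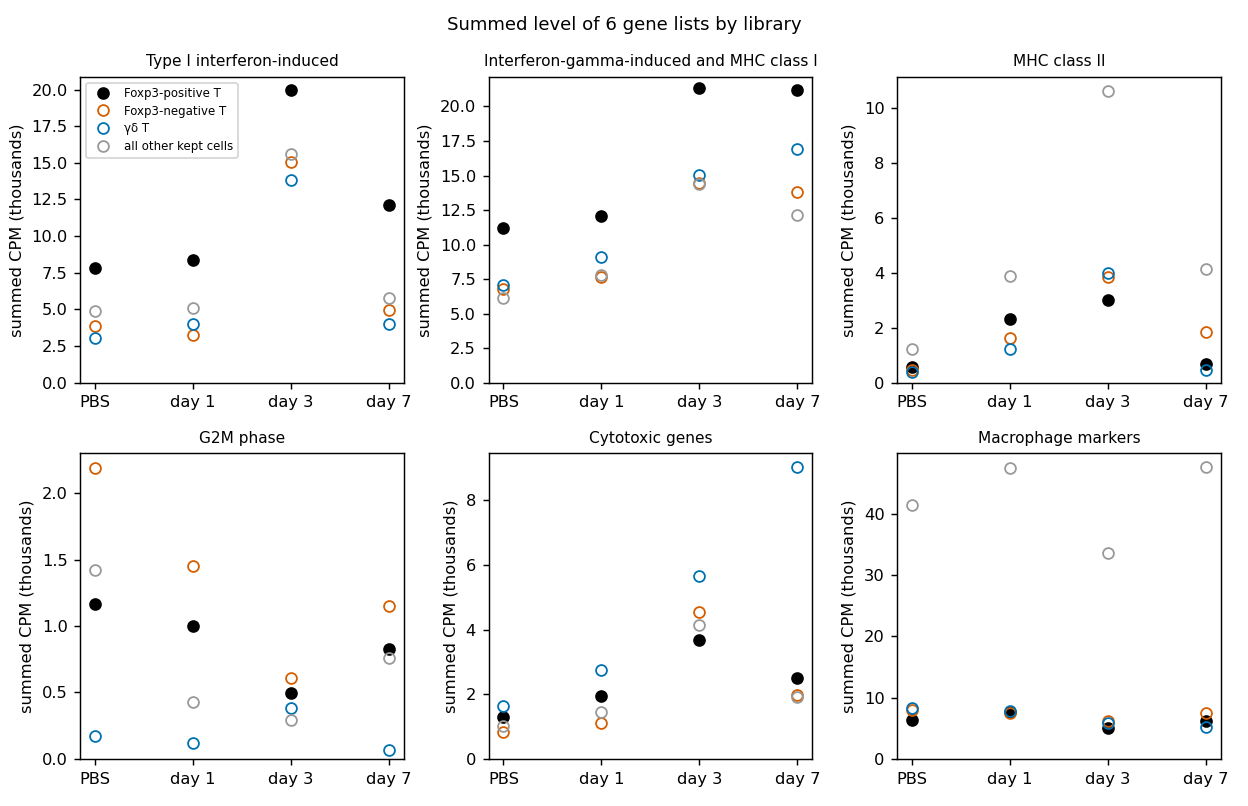
Summed CPM (axis divided by 1000) of 6 gene lists in each library, for Foxp3-positive cells (filled), Foxp3-negative T cells, gamma-delta T cells and all other kept cells (open). The type I interferon list of Foxp3-positive cells is highest at day 3 (20003 CPM against 7808 in PBS), as it is in the other groups, and MHC class II is highest at day 3 in all other kept cells (10597 CPM).

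MHC class II genes, which present antigen in macrophages, dendritic cells and B cells, stood higher at days 1 and 3: 6 of 6 measurable genes at day 1 and 6 of 6 at day 3, against 0 of 2 at day 7. Their sum was 561, 2301, 3014 and 693 CPM in members and 1219.9, 3877, 10597 and 4144 CPM in all other kept cells. H2-Aa, the alpha chain of I-A, had 4, 222, 310 and 3 UMIs in 2, 48, 70 and 3 members, or 23.4, 339.6, 505 and 27.4 CPM, and 203, 758, 2355 and 672 CPM in macrophage barcodes. The ratios were 3.86 (2.49 to 5.75) and 4.43 (3.06 to 6.32). A single cell gave 33.3% of the day 1 and 27.1% of the day 3 UMIs. Without members above 10000 UMIs the day 3 ratio was 2.87, and with at least 2 Foxp3 UMIs the day 1 ratio was 1.33. All 12 macrophage markers were above 0 in members. The rule capped 5 of them, and the other 7 summed to 1618, 1798, 1451 and 1596 CPM, against 7698, 7685, 5883 and 7071 CPM in other kept cells. The 8 dendritic cell markers summed to 111, 229, 275 and 72.9 CPM in members, with Clec9a at 0. The part of other cells' RNA in the class II values was not tested.

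Of the cytotoxic list, 3 of 7 measurable genes stood past the fold above PBS at day 1, 5 of 7 at day 3 and 1 of 5 at day 7, with day 3 medians of 2.03 in members, 1.95 in Foxp3-negative T cells and 3.20 in other kept cells. The shares of all genes above PBS were 2.99%, 6.17% and 8.16% at days 1, 3 and 7. Ccl5, a T cell and macrophage chemokine, had 298, 659, 1213 and 419 CPM and ratios of 1.15 (0.73 to 1.59) and 2.03 (1.62 to 2.46) at days 1 and 3. Nkg7 came from 1, 17, 25 and 7 members, with 5.84, 65.8, 81.4 and 465 CPM. Its ratio was 6.32 (3.77 to 11.65) at day 7, against a single PBS UMI, and 1 of the 7 cells gave 74.5% of the day 7 UMIs. Cxcl10, a chemokine induced by interferons in myeloid cells, stood higher by 3.22 (2.46 to 4.11) at day 3 and Il1b, a myeloid cytokine, by 3.07 (2.25 to 4.03). Ly6c2, a marker of inflammatory monocytes and memory T cells, went from 0 UMIs in PBS to 119 at day 3 in 27 members, at least 11.1-fold higher. The part of other cells' RNA in the Cxcl10, Il1b and Ly6c2 values was not tested.

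Genes of the G2M phase, in which cells prepare for and enter mitosis, stood lower at day 3. Of 8 measurable G2M genes, 5 were past the fold below PBS and 0 above, against 0 of 13 below at day 1 and 2 of 6 at day 7. The shares of all genes below PBS were 2.75% at day 3, 1.64% at day 1 and 8.16% at day 7. The list summed to 1168, 1002, 498 and 829.8 CPM, and its day 3 median of -1.14 compared with -2.03 in Foxp3-negative T cells and -2.36 in other kept cells. Top2a, which untangles DNA, had 204, 202, 91.2 and 119 CPM, a day 3 ratio of -1.16 (-1.80 to -0.51). Birc5 (survivin), a mitotic protein, had 117, 97.9, 29.3 and 82.1 CPM. It came from 9, 12, 8 and 4 members, so few cells carried its values. The S phase list, of DNA replication, was placed differently: 2 of 12 genes were past the fold below PBS and 0 above at day 3 (median -0.69). At day 7 0 of 5 were below and 1 above (median 1.13), where 8.16% of all genes stood in either direction. The S phase list summed to 987, 811, 604 and 1349.5 CPM.

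Targets of p53, which DNA damage activates, stood somewhat higher on all 3 days as a median: 0.76 over 17 genes at day 1, 0.68 over 16 at day 3 and 0.44 over 6 at day 7. Past the fold above PBS were 2, 3 and 1 of these, where 2.99%, 6.17% and 8.16% of all genes were, and 0 stood below on any day. Ccng1 (cyclin G1) had 40.9, 104, 104 and 146 CPM and ratios of 1.35 (0.23 to 2.72), 1.35 (0.22 to 2.72) and 1.84 (0.47 to 3.36). Cdkn1a (p21), a cell cycle inhibitor, had 210.3, 317, 453 and 319 CPM, 1.11 (0.60 to 1.65) at day 3. Pmaip1 (Noxa), a death-promoting BH3 protein, had 35.0, 97.9, 89.6 and 54.7 CPM, 1.48 (0.28 to 2.98) at day 1 and 1.35 (0.14 to 2.86) at day 3. Mdm2, at 75.9, 147, 151 and 100.3 CPM, was not past the fold. The list's medians were 0.50, 0.66 and 0.29 in Foxp3-negative T cells and 0.69, 0.99 and 0.39 in other kept cells.

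Day 7 rested on 32 members and 109667 UMIs. Actb (beta-actin) had 7809, 7551, 7582 and 39009 CPM, a ratio of 2.32 (2.23 to 2.41), and Pfn1 (profilin, an actin-binding protein) 666, 832, 896 and 4669 CPM, 2.81 (2.51 to 3.12). B2m, the light chain of MHC class I, had 2494, 2478, 3713 and 8881 CPM, 1.83 (1.67 to 2.00), while the heavy chain H2-K1 went the other way, with 3860.5, 4065, 7341 and 1915 CPM and -1.01 (-1.24 to -0.79). H2-D1, another heavy chain, had 2354, 2483, 4025 and 5052 CPM, 1.10 (0.91 to 1.29). The same directions were found in Foxp3-negative T cells, with 1.93 for Actb, 1.75 for B2m and -0.55 for H2-K1, and in all other kept cells, with 2.01, 1.72 and -0.49. These shifts ran through the whole day 7 library, and their cause was not tested. Actb alone held 7809 and 39009 CPM in PBS and at day 7, of a total that all CPM values share. Scaling by TMM (edgeR) or DESeq2 factors in place of that total moved the day 7 log2 ratios by -0.0324 and -0.0213.

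**Figure D5:**
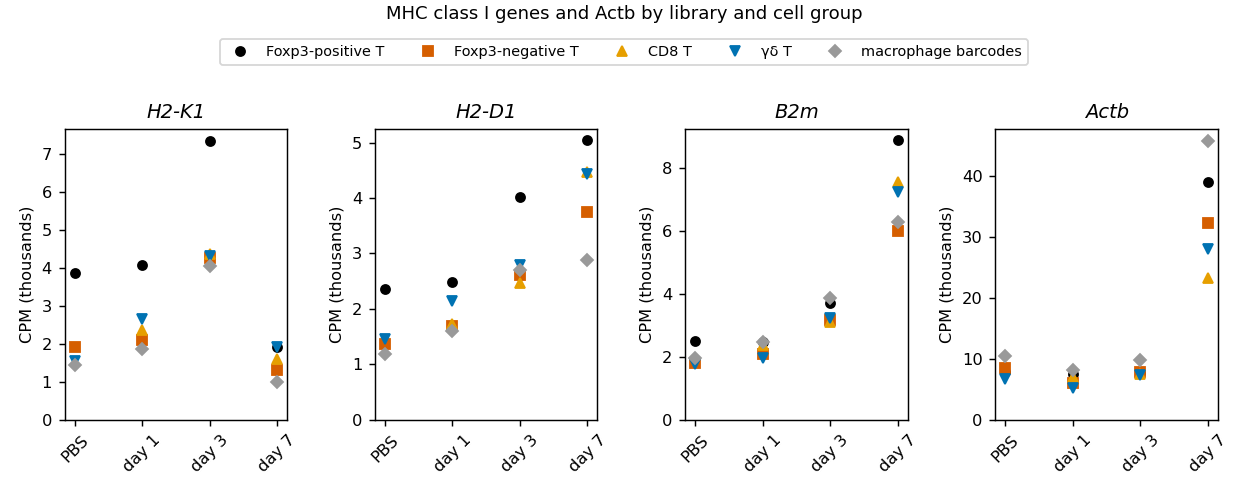
H2-K1, H2-D1, B2m and Actb (CPM, axis divided by 1000) by library and cell group. In every group B2m and Actb are highest at day 7 and H2-K1 is highest at day 3; in Foxp3-positive cells H2-K1 goes from 7341 CPM at day 3 to 1915 CPM at day 7.

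Some genes differed in direction between groups at day 7. Areg stood lower in members, at 561, 514, 451 and 128 CPM with a ratio of -2.13 (-3.06 to -1.32). It stood higher in Foxp3-negative T cells (1.13) and in other kept cells (1.18). The heat shock gene Dnajb1 was split the same way, with -1.29 (-2.40 to -0.31) in members against 1.37 and 0.88. So was Col3a1, with -2.53 (-5.68 to -0.46) against 3.41 and 3.16, where 1 cell gave 94.4% of the UMIs of PBS members. The difference between the groups was not tested, and at day 7 only 6 members held an Areg UMI. Il7r stood lower with a ratio of -1.20 (-1.67 to -0.76), against -2.11 in Foxp3-negative T cells and -0.65 in other kept cells. Slc2a1 (GLUT1, a glucose transporter) had 187, 159, 159.6 and 9.12 CPM, a ratio of -4.36 (-9.70 to -1.78) from a single UMI at day 7. S100a4, a calcium-binding protein of motile cells, had 2482, 2191, 2091 and 565 CPM, a ratio of -2.13 (-2.54 to -1.75), again with a similar value in Foxp3-negative T cells (-2.40). Of the heat shock list 5 of 20 stood lower and 1 higher at day 7, where 8.16% of all genes stood in either direction. Hspa1a was among the lower ones, with 491, 531, 233 and 137 CPM. Thy1, whose protein CD90 was sorted on, had 128, 231, 217 and 201 CPM.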

How the data were processed

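The 4 libraries are 10x Genomics 3' v3 single-cell RNA matrices, 1 per condition, for which 15000 cells were loaded and 20000 reads per cell were aimed at, per the labels' protocols. The deposited matrices hold raw UMI counts for 31053 features that the authors made with Cell Ranger 3.1.0 on mm10, and Seurat 3.1.2 is also named, both per the submitters' processing notes. The role of Seurat is not given there. The members and gene lists were chosen with earlier results of these data known.

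Counts were summed per library and cell group, and a sum over fewer than 10 cells was left out. Groups of cells were compared with edgeR 4.0.16 in R 4.3.3 (quasi-likelihood test, TMM, low counts filtered, library as a block, Benjamini-Hochberg adjustment over all genes tested, threshold 0.05). The libraries are the replicates of those contrasts. DESeq2 1.42.0 was an alternative. Because Foxp3 is often missed at this depth, some Foxp3-negative T cells may be Tregs, which lowers a measured difference. This group needed only 1 CD3 UMI, so it may also hold cells with little T cell RNA. Unthinned, Trac was found in 45.1, 43.8, 57.5 and 56.4% of it and 75.8, 79.5, 84.7 and 93.8% of members, from PBS to day 7. With at least 3 CD3 UMIs required, the changes of Ikzf2, Ctla4 and Tnfrsf4 were smaller and those of Tcf7 and Ifng larger in size. A measured difference can thus be off in either direction, and how far was not tested. Days were compared with PBS as ratios without a test, for genes with at least 20 UMIs over both libraries, and intervals cover counting error only. A gene at 0 was set at a floor of 3 counts. Medians of the lists printed here stayed the same to 2 decimals with such genes at that bound. The edgeR and ratio steps were tested on simulated data.

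No doublets were removed: Scrublet (scanpy 1.11.5) called 0 cells at its own threshold, so it did not work here. Removing the highest scores at 0.8% per 1000 barcodes was an alternative, as were other limits on Foxp3, CD3, Cd4, macrophage genes, depth, scaling and the block.

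The text names 18 marker genes in every comparison and, per comparison, the 12 highest and 12 lowest called genes (fitted average of at least 32 CPM, or for days by the bound nearer to 1), and up to 4 members of each of 26 lists with the largest changes. Other genes were chosen for their role after their values were seen. Gene positions are from the mm10 annotation and promoters from RefSeq. Some genes of the lists are not reported here.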

Additional observations from a re-analysis of the deposited data

How the results depend on the processing

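In the order PBS, day 1, day 3 and day 7, members were 0.285%, 1.08%, 1.91% and 0.541% of kept cells with at least 2 Foxp3 UMIs, 0.458%, 0.668%, 2.48% and 0.758% with a macrophage limit of 0.5%, and 0.173%, 0.815%, 1.29% and 0.289% with a Cd4 UMI required. Without a macrophage limit they were 1.11%, 4.49%, 3.93% and 1.66%. Thinning to 1000 UMIs gave 0.437%, 0.654%, 1.63% and 0.330%, and thinning to 2000 UMIs 0.330%, 1.21% and 2.41% in the first 3. At least 1000 genes gave 0.541% in PBS. Of CD3+ cells, members were 12.2%, 17.7%, 13.2% and 12.8% with at least 2 Foxp3 UMIs, 17.6%, 17.0%, 14.4% and 14.4% without a macrophage limit, 7.45%, 13.3%, 8.90% and 6.84% with a Cd4 UMI, and 23.3%, 16.6%, 15.2% and 10.5% thinned to 1000 UMIs. Day 7 was 36.4% thinned to 2000 UMIs. Against Foxp3-negative T cells, 320 genes were higher and 229 lower without the library block (the replicate block of these contrasts), 471 and 472 with a macrophage limit of 0.5%, 333 and 433 thinned, and 315 and 374 with at least 3 CD3 UMIs. Leaving out a library gave 357 to 806 higher and 371 to 854 lower, the fewest without day 1. Against CD8 T cells they were 116 and 44 without the block, 152 and 121 with a macrophage limit of 0.5%, 231 higher when thinned, and 155 to 380 and 148 to 388 with a library left out. Without day 1 these were 155 and 148, and without day 3 168 and 187. Against gamma-delta T cells they were 166 and 122 without the block, 196 higher when thinned, and 157 to 284 and 187 to 296 with a library left out (194 and 192 without day 1, 157 and 187 without day 3). The macrophage limit of 0.5% left 1 gamma-delta library, so it was not run for that contrast. DESeq2 called 724 and 718, 306 and 263, and 317 and 316 genes in the 3 contrasts. No paired analysis was possible for the days because each has 1 library. At day 1, 95 genes stood higher and 20 lower with a minimum of 50 UMIs, 239 lower with a minimum of 1 UMI, 75 higher with at least 2 Foxp3 UMIs and 94 higher with a macrophage limit of 0.5%. At day 3, 205 stood higher and 48 lower with 50 UMIs, 320 lower with 1 UMI, 143 higher and 85 lower with 2 Foxp3 UMIs, and 88 lower without members above 10000 UMIs. At day 7, 78 stood higher and 84 lower with 50 UMIs, 313 higher with 1 UMI, and 110 higher and 79 lower with 2 Foxp3 UMIs. Among single genes, the direction reversed for Cdk1 (0.73), Rrm1 (0.13) and Ube2c (1.16) against Foxp3-negative T cells and for Ube2c (0.22) against CD8 T cells with at least 3 CD3 UMIs, and for Cd163l1 (-4.13) without members that held Trdc. It also reversed at day 1 for Col3a1 (2.48) without members above 10000 UMIs, Fabp5 (-0.10) with 2 Foxp3 UMIs and Gins2 (0.26) with equal weight per cell, and at day 7 for Lgals3 (1.28) with 2 Foxp3 UMIs. The causes were not tested. Thinning to 1000 UMIs and the settings on CD3, Trdc and 10000 UMIs were chosen after seeing the data.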

Other observations

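Several genes of other roles were higher in members than in Foxp3-negative T cells. Penk, the precursor of enkephalin peptides, had 648, 217, 344 and 319 CPM in members and 261, 24.6, 18.3 and 8.09 CPM in Foxp3-negative T cells, a change of 2.97 ± 0.34 (adjusted p = 4.9e-07) in the edgeR fit. It was at 0 in the 3 CD8 sums, so members were at least 116-fold higher against a floor of 3 counts over the group. Without the library block the first change was 2.26 (adjusted p = 0.070). Penk came from 17, 20, 26 and 4 members. Pcsk1, a convertase that cuts prohormones such as proenkephalin, had 140.2, 93.3, 89.6 and 18.2 CPM against 31.4, 6.39, 8.62 and 4.04 CPM, in 17, 28, 20 and 2 members. Tff1, a trefoil peptide of mucosal surfaces, had 742, 303, 78.2 and 36.5 CPM against 173, 9.13, 7.10 and 12.1 CPM (3.26 ± 0.41, adjusted p = 1.3e-06). Penk and Tff1 stood lower in the cisplatin libraries than in PBS. The log2 ratio, without a test, was -1.58 (-1.95 to -1.21) at day 1 for Penk, and -1.29 (-1.62 to -0.96), -3.25 (-3.76 to -2.76) and -4.35 (-6.24 to -2.95) at days 1, 3 and 7 for Tff1. Izumo1r (folate receptor 4), a known Treg surface protein, had 81.8, 112, 132 and 109 CPM against 24.7, 13.2, 20.3 and 12.1 CPM (2.65 ± 0.27, adjusted p = 7.6e-08).

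Neb (nebulin, a muscle filament protein), Sv2c (a synaptic vesicle protein) and Gpr55 (a lipid receptor) were higher than in Foxp3-negative T cells as well, by 2.98 ± 0.31 (adjusted p = 7.6e-08), 2.89 ± 0.31 (adjusted p = 1.6e-07) and 2.80 ± 0.29 (adjusted p = 9.3e-08). Neb had 134, 188, 143 and 27.4 CPM in members. Sv2c had 123, 129, 149.8 and 109 CPM and Gpr55 134, 167, 87.9 and 119 CPM. The immunoglobulin transcripts Igkc and Ighm were higher than in Foxp3-negative T cells too, by 3.30 ± 0.37 (adjusted p = 6.2e-07) and 2.30 ± 0.25 (adjusted p = 2.0e-07). Igkc had 152, 93.3, 168 and 63.8 CPM in 11, 19, 28 and 4 members and 33.7, 5.48, 11.7 and 12.1 CPM in Foxp3-negative T cells. The 6 B cell markers, of which these are a pair, summed to 315, 257, 409 and 292 CPM in members, and the defining markers Cd79a and Ms4a1 were at 0. The part of B cell or plasma cell RNA in these values was not tested.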
